A study of Mus musculus with 150 samples.

Results

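The F1 hybrids of the inbred mouse strains C57BL/6J and DBA/2J carry 1 genome copy from each parent, so mice of 1 cross are genetically alike. They were chosen here by the strain label alone: 10 of the 150 samples, 6 labelled B6D2F1 and 4 labelled D2B6F1. The 2 names stand for the 2 directions of the cross. In mouse nomenclature the mother's strain is written first, although the labels do not state it. The series measured liver mRNA by sequencing in female and a few male mice of the BXD family, which is the parents, both F1 and recombinant inbred strains bred from them. They were fed chow (CD) or high-fat food (HF), and livers were taken at set ages after perfusion, without the gall bladder. All 16 F1 and parent libraries used here were labelled female.

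The B6D2F1 mice were on CD at 640, 552 and 216 days of age (replicates 1, 2 and 5) and on HF at 547, 547 and 216 days (replicates 3, 4 and 6). The D2B6F1 mice were on CD at 545 and 210 days (replicates 1 and 4) and on HF at 540 and 214 days (replicates 2 and 3). The C57BL/6J mice were on HF at 544 and 182 days (replicates 1 and 3) and on CD at 537 days. The DBA/2J mice were on CD at 764 and 212 days (replicates 1 and 3) and on HF at 549 days. Replicate numbers are names only. Each library was taken as 1 mouse. In the main fit the spread behind each p-value was estimated over all 141 female libraries around their strain levels. Most of these were BXD libraries, so it is not the spread between the F1 and parent mice alone. A further 125 female libraries of 36 BXD strains served to estimate diet, age and spread. Levels are FPKM, fragments scaled to transcript length and library depth, rescaled by median of ratios between libraries, and fold changes are on the log2(FPKM + 1) scale.

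A gene at which only cis-acting variants differ between the parents is expected, as background, to give an F1 level near the mean of both parents, since each genome copy contributes its own share. A dominant locus places the F1 at 1 parent, and levels beyond both parents are called transgressive. Reciprocal F1 can differ by imprinting and by their mitochondria. Imprinted genes are read from 1 parental copy only, and mitochondrial DNA comes from the mother.

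The results below include genes of an imprinted region and a gene of the mitochondrial genome, and their sequences are shown first. The part of imprinting or of mitochondrial descent in the differences at these genes was not tested. Snurf and Snrpn, paternally read genes of the Prader-Willi region, share a start region on mouse chromosome 7. The 250 bases before their RefSeq start (chr7:60005200-60005449, minus strand, GRCm38.p6) hold the motif CG, the dinucleotide at which DNA is methylated, 3 times, in capitals. CG reads the same on both strands. At least 3 occur in 71.0% of the 32851 RefSeq promoter windows of that length, with a median of 6. The second is the mitochondrial gene mt-Tg, which encodes the transfer RNA for glycine (chrM:9391-9458, plus strand, GRCm38) and is 68 bases long, from the GENCODE M21 transcripts.
Snurf and Snrpn upstream window: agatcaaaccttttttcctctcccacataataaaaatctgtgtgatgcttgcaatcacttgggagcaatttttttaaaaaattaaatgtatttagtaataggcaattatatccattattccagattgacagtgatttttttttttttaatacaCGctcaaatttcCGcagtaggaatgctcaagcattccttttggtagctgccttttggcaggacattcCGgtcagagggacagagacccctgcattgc
mt-Tg: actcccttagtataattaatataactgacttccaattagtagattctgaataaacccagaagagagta

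B6D2F1 replicates 1 and 2, the only B6D2F1 mice that were both old and on CD, stood apart from all other F1. D2B6F1 replicate 1, also old and on CD, did not. Log2 levels of the B6D2F1 pair correlated at 0.995 with each other over genes and at 0.843 to 0.889 with the other 8 F1, which correlated at 0.966 to 0.992 among themselves. Read counts of the pair differed by 5.9 times sampling noise (chi-square per degree of freedom), less than the 15.5 to 108.2 between the other F1. This value cannot show whether they were 2 mice, since separate preparations of 1 liver can also differ beyond sampling noise. They were kept as 2 samples because they are labelled so, with ages of 640 and 552 days. DBA/2J replicate 2 correlated at 0.936 and 0.913 with the other DBA/2J libraries, which correlated at 0.975.

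The pair carried RNA of many myeloid genes. Lyz2, the lysozyme of macrophages, lay at 3919 and 4196 rescaled FPKM in the pair, against 33.6 to 77.5 (median 38.8) in the other 8 F1, 67.0 to 91.3 in C57BL/6J and 44.8 to 208 in DBA/2J. Trem2, a receptor of lipid-associated macrophages, lay at 115 and 119, against 0.191 to 1.60. The 18 Kupffer cell and macrophage markers summed to 9967 and 10108, against 218 to 542 in the other F1, 542 to 666 in C57BL/6J, 393 to 1375 in DBA/2J and 193 to 3285 in the BXD libraries, with no marker at 0 in any of these groups. Erythroid markers summed to 6467 and 6935, against 101 to 713 in the other F1, and gall bladder and duct mucus markers, mainly Tff3, to 359 and 416 against 1.92 to 31.4. Hepatocyte markers summed to 70091 and 72051 against 38353 to 67417, so the tissue label holds for the pair and for the other F1. In bulk tissue, more cells of a type and more RNA per cell cannot be told apart.

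**Figure D1:**
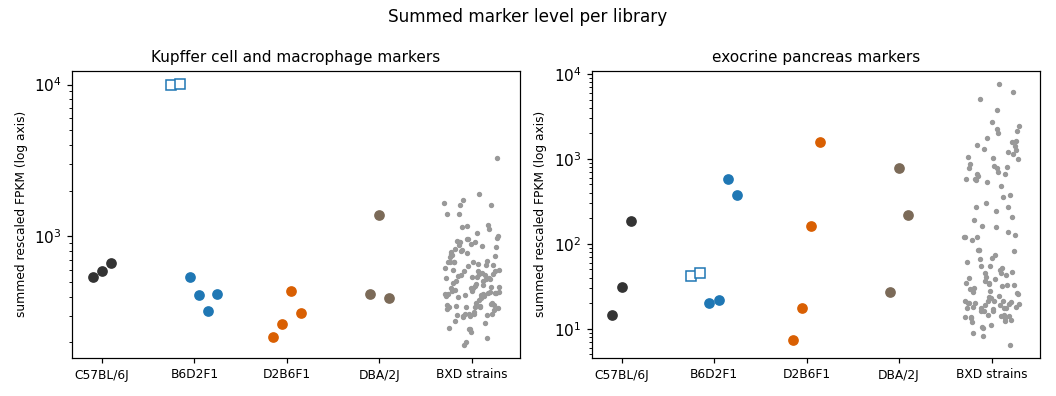
Summed rescaled FPKM (log axis) of the 18 Kupffer cell and macrophage markers and the 20 exocrine pancreas markers in every library. Each point is 1 mouse and open squares are B6D2F1 replicates 1 and 2, whose macrophage sums of 9967 and 10108 lie above every other library.

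Exocrine pancreas genes, which liver should hardly express, were the genes that varied most within the other 8 F1. The 20 markers summed to 7.32 to 1567 rescaled FPKM there (median 92.4) and to 14.5 to 775 over the parents. In the BXD libraries they summed to 6.49 to 7661 (median 48.8), so this variation was not particular to the F1. The protease gene Ctrb1 ranged from 0.0605 to 359, with a median of 15.2.

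The F1 labels were checked at 26 genes at which the parents did not overlap and differed by at least 3 on the log2 scale. On a scale from 0% at the C57BL/6J mean to 100% at the DBA/2J mean, the median gene of each F1 library lay at 27.6 to 44.9%. The parents' own libraries lay at -0.1 to 0.0% and at 95.3 to 104.0%, but they set the ends of the scale and the choice of genes, so their positions are no check. The pair had medians of 44.4 and 43.2%, but its genes were more scattered, with quartiles of 14.1 to 81.0% and 17.8 to 79.4%, against 19.7 to 36.8% in B6D2F1 replicate 3 and 29.8 to 61.1% in D2B6F1 replicate 1. Its hybrid label is therefore less plainly borne out by these genes than that of the other F1. The part of cell composition in this scatter was not tested. Sequencing batch and group were largely joined: 8 of 10 F1 libraries but 1 of 6 parent libraries came from 1 flow cell. Sequencing gave 19882032 to 30678472 input reads in the F1 libraries and 20490432 to 29551018 in those of the parents. A 1-kilobase transcript at an FPKM of 1 had 18.8 to 28.2 reads in the F1, which sets their counting error. Mismatches per base were 0.39 to 0.59% in DBA/2J, 0.32 to 0.46% in the F1 and 0.29 to 0.36% in C57BL/6J, the strain of the reference genome. Unique mapping was 80.1, 89.6 and 80.3% in DBA/2J and 86.2 to 90.7% in the F1. The part of mapping and mismatches in the results was not tested. Flow cell was tried as a factor, and its values stand beside the results that it moved. So was collection session, taken here as the part of each library's case number before the dot, with parts held by 1 library pooled. That this part marks a session is an assumption.

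Between the reciprocal crosses, 875 genes passed (6.58%), 328 higher (2.47%) and 547 lower (4.11%) in D2B6F1. Leaving out the pair left 4 (0.0301%), which were Snrpn, Gm38393, Snurf and mt-Tg, with adjusted p = 4.91e-04 for Snrpn, 0.00286 for Gm38393 and 0.0292 for Snurf and mt-Tg in limma. The count of 875 rested on single mice: leaving out B6D2F1 replicate 1 or 2, or D2B6F1 replicate 1 or 2, left 8, 9, 9 and 7, and leaving out B6D2F1 replicate 3, 4 or 5 gave 1486, 1592 and 1464.

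Snrpn, which encodes a small nuclear ribonucleoprotein, separated the reciprocal crosses without overlap, as did 7.19% of all genes tested. In B6D2F1 replicates 1 to 6 it stood at 14.6, 15.1, 13.1, 14.1, 12.2 and 13.4 rescaled FPKM, and in D2B6F1 replicates 1 to 4 at 4.63, 5.70, 5.35 and 4.16. DBA/2J had 22.4, 13.1 and 16.4, and C57BL/6J had 5.32, 5.11 and 3.79. Each cross therefore stood at the level of the strain written second in its name, the father's by convention, and apart from the other parent. D2B6F1 were 1.30 lower than B6D2F1 on the log2 scale (SE 0.19, limma adjusted p = 8.43e-06, 4 of 4 below 6 of 6).

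Snurf, which is read from the same transcripts upstream of Snrpn, moved with it. Its levels were 31.9, 40.8, 33.3, 36.4, 33.8 and 37.0 in B6D2F1 and 15.4, 19.2, 12.2 and 10.6 in D2B6F1. C57BL/6J had 14.2, 14.3 and 10.7 and DBA/2J 51.6, 27.2 and 38.0, so the crosses again did not overlap and sorted with the second-named strain (log2 difference -1.26, SE 0.24, limma adjusted p = 0.00176). The annotated read-through Gm38393 overlaps both genes and differed by -1.10 (adjusted p = 1.96e-04). Reads of the 3 overlapping models cannot be told apart with certainty, so they count as 1 observation.

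The transfer RNA gene mt-Tg sorted the other way. In B6D2F1 it read 39.7, 24.0, 24.9, 28.4, 25.6 and 22.2 rescaled FPKM, next to 28.6, 32.9 and 28.7 in C57BL/6J. In D2B6F1 it read 0.789, 4.35, 0.644 and 1.78, next to 3.71, 0 and 6.95 in DBA/2J. Each cross stood with the first-named strain, the mother's by convention, with no overlap (log2 difference -3.42, SE 0.64, limma adjusted p = 0.00122). The gene is short: these values rest on 34 to 58 reads in B6D2F1, 1 to 8 in D2B6F1, 43 to 57 in C57BL/6J and 0 to 8 in DBA/2J. Libraries were enriched for polyA RNA, so the level of the mature transfer RNA is not known from them. Of 36 BXD strains, 5 had all their libraries at or under the highest D2B6F1 or DBA/2J value (BXD32, BXD89, BXD90, BXD95 and BXD99), 18 had all at or above the lowest B6D2F1 or C57BL/6J value, and 13 lay between or were mixed. For Snrpn the same count gave 15 strains at the low level, 6 at the high level and 15 between.

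**Figure D2:**
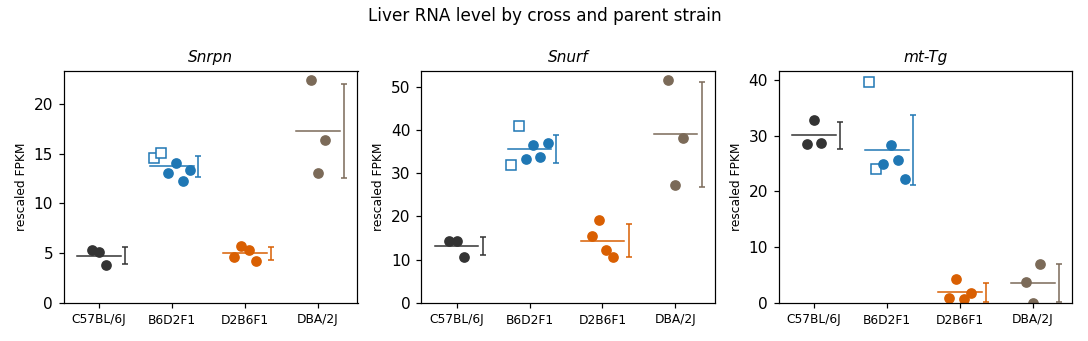
Rescaled FPKM (y axis, from 0) of Snrpn, Snurf and mt-Tg in the 16 libraries by strain or cross. Each point is 1 mouse, lines are means, bars are 1 SD, and open squares are B6D2F1 replicates 1 and 2. B6D2F1 sit with DBA/2J for Snrpn (12.2 to 15.1) and with C57BL/6J for mt-Tg (22.2 to 39.7), and D2B6F1 sit with the opposite parent.

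At the other genes with the smallest p the pair was highest and the call was lost without it, with a smaller difference in the same direction. Wtip, an adaptor protein, had 11.7 and 9.95 in the pair, 1.61 to 2.44 in the other B6D2F1 and 0.826 to 1.48 in D2B6F1 (log2 difference -1.21, adjusted p = 0.00122, and -0.56 with 0.581 without the pair). Mfsd5, a transporter, had 40.2 and 41.4 in the pair, 16.1 to 16.9 in the other B6D2F1 and 11.0 to 14.5 in D2B6F1 (-0.75, adjusted p = 0.00122, and -0.35 with 0.581 without it). Bach2os, an antisense RNA, had 4.31 and 3.50 in the pair, 0.688 to 1.04 in the other B6D2F1 and 0.291 to 0.501 in D2B6F1, with no overlap (-0.92, adjusted p = 0.00122, and -0.43 with 0.581 without the pair). Macrophage markers moved with these calls: 11 of 18 were called lower in D2B6F1 with the pair (median -1.51) and 0 without it (median -0.33).

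Of 32 tested imprinted genes, 1 was called higher and 3 lower in D2B6F1, against 2.47% and 4.11% of all genes. Without the pair 0 and 2 were called, the latter Snrpn and Snurf. Ube3a, maternally read in neurons, averaged 3.59 in B6D2F1 and 5.37 in D2B6F1 (0.46, adjusted p = 0.0238, and 0.581 without the pair), and Tssc4 differed by -0.64 (adjusted p = 0.0348, and 0.581). These 2 genes were named after their values were seen. Of 15 other mitochondrial genes 3 were called higher in D2B6F1 (mt-Nd4l, mt-Nd6 and mt-Rnr2) and 0 without the pair, where the median difference was 0.60. mt-Nd4l, a subunit of complex I, had 3659, 4730, 2713 and 2771 in D2B6F1 and 1385, 1969, 2331 and 2133 in the other B6D2F1, with no overlap, beside 414 and 398 in the pair. mt-Atp6 and mt-Atp8, subunits of ATP synthase, read 5.46 to 26.3 and 4.79 to 32.0 over the F1 against 15.6 to 77.8 and 20.0 to 99.0 over the parents, below the midpoint by 1.06 and 1.12 without passing (adjusted p = 0.758 for each).

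The central question was whether the F1 lay at the midpoint of their parents. With the midpoint taken on the log2 scale, 4 of 13301 genes passed (0.0301%), all 4 higher in the F1, and 712 passed at an unadjusted p under 0.05, 513 higher and 199 lower. The 4 genes were Ctse, Cyp2c39, Eno1b and Trim12a, and at each the parents themselves differed widely. With the midpoint taken on the FPKM scale, limma called 0 genes, with 636 at an unadjusted p under 0.05. This FPKM midpoint was the mean of both parents' fitted log2 levels after each was turned back from the log2 scale. It differs from the plain mean of the parents' FPKM values, which is given below for single genes without a test. The median standard error of a gene was 0.15 on the log2 scale, so a typical 95% interval was 0.30 to either side.

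Ctse encodes cathepsin E, an aspartic protease (chr1:131638306-131675505). It was nearly absent from C57BL/6J, at 0.586, 0.332 and 0.406 rescaled FPKM, and stood at 18.3, 34.1 and 14.9 in DBA/2J. D2B6F1 had 15.5, 19.3, 24.2 and 20.3, and B6D2F1 had 27.0, 26.8, 13.2 and 15.1 beside 4.05 and 3.50 in the pair. The F1 overlapped DBA/2J and were all above C57BL/6J. The F1 lay 1.5 above the log2 midpoint (SE 0.30, limma adjusted p = 0.0144) and 0.37 above the FPKM midpoint (SE 0.37, adjusted p = 0.893).

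Cyp2c39, a cytochrome P450 (chr19:39510862-39568529), had 3.11, 5.46 and 4.30 in C57BL/6J and 121, 181 and 142 in DBA/2J. D2B6F1 had 113, 114, 55.8 and 101, and B6D2F1 had 80.8, 72.4, 80.9 and 64.8 beside 15.3 and 15.8 in the pair. All 10 F1 lay between the parents, 1.20 above the log2 midpoint (SE 0.25, adjusted p = 0.0328) and -0.27 from the FPKM midpoint (SE 0.32, adjusted p = 0.899). Without the pair the F1 mean was 1.12 times the plain mean of both parents. Cyp2c genes are close relatives and can share reads.

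Eno1b, a near copy of the glycolytic enzyme gene Eno1 on chromosome 18, had 1.73, 1.65 and 1.11 in C57BL/6J, 46.1, 22.0 and 64.3 in DBA/2J and 16.5 to 29.8 in the 10 F1. The F1 were all above C57BL/6J and overlapped DBA/2J replicate 2. The F1 mean of 21.3 ± 4.86 (SD, n = 10) was 0.935 times the plain parental mean of 22.8, while the log2 difference was 1.09 (SE 0.19, adjusted p = 0.00194). Trim12a, of the TRIM family (chr7:104299897-104315456), had 5.92, 5.78 and 5.38 in C57BL/6J, 0.254, 0.128 and 0.0397 in DBA/2J and 2.02 to 4.06 in the F1, with no overlap. Its F1 mean of 3.12 ± 0.653 was 1.07 times the plain mean, and its log2 difference was 0.60 (SE 0.13, adjusted p = 0.0481). Of these 4 genes, Ctse had the F1 mean farthest above the plain mean, at 1.48 times. In the fit over the 16 F1 and parent libraries alone, with diet and age, none of these 4 genes passed. Limma adjusted p was 0.284 for Ctse, 0.757 for Cyp2c39, 0.160 for Eno1b and 0.0519 for Trim12a, with differences of 1.5, 1.19, 1.07 and 0.62. With collection session as a factor Ctse held (adjusted p = 0.00187). Eno1b (0.379), Cyp2c39 (0.258) and Trim12a (0.379) were lost there. In the main fit the calls rested on few mice. Eno1b passed without any 1 mouse except DBA/2J replicate 2 (0.87, adjusted p = 0.107). Ctse was lost without any 1 of 7 mice (B6D2F1 3 and 4, D2B6F1 4, C57BL/6J 1 and 3, DBA/2J 1 and 3), with 1.39 to 1.51 and adjusted p = 0.052 to 0.149. Cyp2c39 held only without B6D2F1 1 or 2, D2B6F1 3, C57BL/6J 2 or DBA/2J 2, and was lost without any 1 of the other 11, with 1.10 to 1.21 and adjusted p up to 0.195, and Trim12a held only without B6D2F1 5 and was lost without any 1 of the other 15, with 0.57 to 0.62 and adjusted p up to 0.21.

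**Figure D3:**
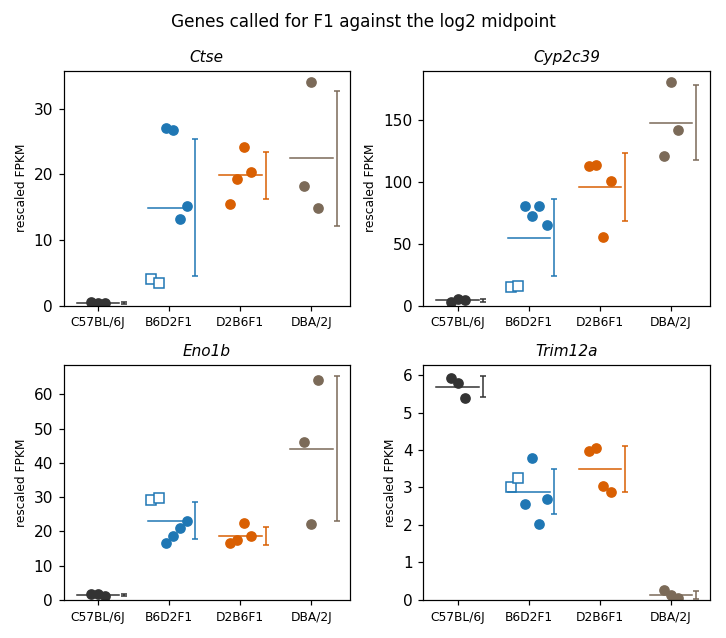
Rescaled FPKM (y axis, from 0) of the 4 genes called for F1 against the log2 midpoint, by strain or cross. Each point is 1 mouse, lines are means, bars are 1 SD and open squares are B6D2F1 replicates 1 and 2. The F1 of Cyp2c39 (15.3 to 114) and Trim12a (2.02 to 4.06) lie between the parents, and those of Ctse and Eno1b overlap DBA/2J.

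Genes next in order of p did not pass. 1700019G17Rik had 0.724 to 1.95 rescaled FPKM in the F1 and 1.42 to 4.38 in the parents, a log2 difference of -0.71 (adjusted p = 0.0536). Gm11127 (1.04, adjusted p = 0.0969), 2610507I01Rik (0.43, adjusted p = 0.135) and Hivep2 (0.45, adjusted p = 0.135) also missed the threshold. Without the pair, 6 genes passed on the log2 scale (0.0451%): Cyp2c39 (1.58), Ctse (1.81), Eno1b (0.99), 2610507I01Rik (0.53), Ildr2 (1.20) and Corin (0.85), and 0 passed on the FPKM scale, with 1564 at an unadjusted p under 0.05. A fit over the 14 remaining F1 and parent libraries alone called 150 genes (1.13%), 88 higher and 62 lower.

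Levels outside the parental range were then tested. The call needed a difference from both parents in the same direction, and 0 of 13301 genes met it in limma (0%), with 27 at unadjusted p under 0.05 in both. Against C57BL/6J the F1 differed at 73 genes (0.549%), 63 higher (0.474%) and 10 lower (0.0752%), and against DBA/2J at 1241 (9.33%), 803 higher (6.04%) and 438 lower (3.29%). With flow cell as a factor these counts were 104 and 233, and with collection session 88 and 149, so the gap between the parents in these counts was much smaller there. The first count was 39, 35 and 44 without C57BL/6J replicate 1, 2 or 3. The second was 1892 without B6D2F1 replicate 2, 3176 without the pair, and 544, 302 and 2902 without DBA/2J replicate 1, 2 or 3. Psmc4, an ATPase subunit of the proteasome (chr7:28041707-28050101), chosen after its values were seen, was the 1 gene of 13301 whose 10 F1 libraries all lay below all 6 parent libraries, and 0 genes lay above all 6 (0.00752% either way). Its F1 range was 29.1 to 48.2 rescaled FPKM and its parental range 48.2 to 57.5, so the groups met at their edges. The log2 difference was -0.32 from the midpoint (SE 0.12, adjusted p = 0.881). Without the pair, 32 genes lay above and 17 below all parents (0.368%), and the test still called 0. The fit over 14 libraries called 6 genes outside the range (Fabp5, S100a11, Plscr1, Marcks, Pmm1 and Ebi3), 1 above and 5 below.

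DBA/2J and C57BL/6J differed at 2250 genes (16.9%), 1028 higher (7.73%) and 1222 lower (9.19%) in DBA/2J. That count was 778 with flow cell as a factor, 810 and 601 without C57BL/6J replicate 1 or 2, and 615 and 3906 without DBA/2J replicate 2 or 3. An index of the F1 position was taken as -1 at C57BL/6J, 0 at the log2 midpoint and +1 at DBA/2J. Where the parents differ widely, an F1 at their plain mean lies toward the higher parent on this scale. The F1 were within 0.5 of the midpoint at 1477 genes (65.6%), nearer C57BL/6J at 740 (32.9%), nearer DBA/2J at 32 (1.42%) and beyond 1.5 at 1. The median index was -0.38, on the C57BL/6J side. These are descriptions with no test of their own, since the same parental values choose the genes and set the ends of the scale. Over genes the median spread in DBA/2J was 0.356 on the log2 scale, against 0.168 in C57BL/6J.

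That median index moved with the libraries. Each library alone gave 0.40 and 0.45 in the pair and -0.72 to -0.27 in the other 8 F1. Without the pair the median was -0.58, over 2731 genes (20.5%), with 40.1% near the midpoint and 57.8% nearer C57BL/6J. Without the pair and DBA/2J replicate 2 only 679 genes (5.10%) differed between the parents, the median index was -0.36 and 59.5% were near the midpoint. With collection session as a factor it was 0.03, with flow cell -0.18, and with flow cell and without the pair -0.24. Genes with a parental difference of at least 2 on the log2 scale moved less: 88 genes with a median of -0.10, 89 genes with -0.14 without the pair and 74 genes with -0.07 without all 3 libraries. On the FPKM scale those 88 genes split by direction. Where DBA/2J was higher (58 genes), the F1 stood a median 30.7% of the way from the lower to the higher parent, and where C57BL/6J was higher (30 genes) 58.6%. Without all 3 libraries the shares were 30.4% (56 genes) and 54.9% (18 genes).

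**Figure D4:**
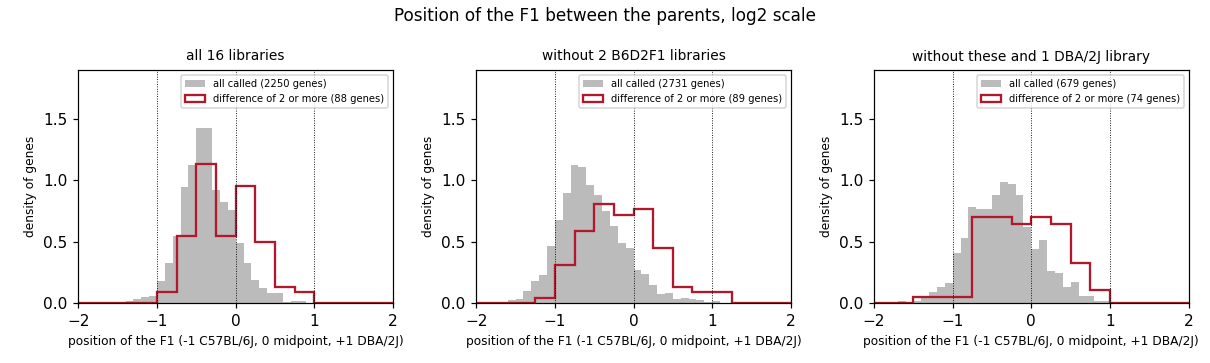
Density of genes (y axis) by the position of the F1 between the parents on the log2 scale (x axis, -1 at C57BL/6J, 0 at the midpoint, +1 at DBA/2J), for all genes called between the parents (grey) and those that differed by at least 2 (red line). The median of all called genes is -0.38 with all libraries, -0.58 without B6D2F1 replicates 1 and 2, and -0.36 without these and DBA/2J replicate 2.

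Several liver genes with textbook differences between these parents had intermediate levels in the F1. The parents did not overlap at 38.0% of all genes. Hc, complement C5, which DBA/2J lacks as protein, had 117, 173 and 147 rescaled FPKM in C57BL/6J, 14.7, 15.5 and 21.1 in DBA/2J and 38.2 to 103 in the F1, with no overlap (index -0.33). H2-K1, a class I antigen gene at which the parents carry different haplotypes, had 916 to 1033 in C57BL/6J, 297 to 421 in DBA/2J and 551 to 713 in the F1, again with no overlap (index -0.09). Alad, the heme synthesis enzyme whose gene is duplicated in DBA/2J, had 116 to 135, 283 to 406 and 172 to 263 (index 0.05). Glo1, the detoxifying glyoxalase also duplicated in DBA/2J, had 102, 120 and 151 in C57BL/6J, 262 to 290 in DBA/2J and 163 to 221 in the other 8 F1, with 92.6 and 97.3 in the pair (index -0.17, and 0.07 without it).

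At other such genes the F1 without the pair were nearer 1 parent by the log2 index. Nnt, the mitochondrial transhydrogenase with a deletion in C57BL/6J, had 13.1 to 19.5 there, 22.2 to 37.2 in DBA/2J and 27.8 to 34.3 in the other 8 F1, with 12.0 and 12.1 in the pair (index 0.41, and 0.80 without the pair). Ahr, the aryl hydrocarbon receptor, had 8.65 to 9.41 in C57BL/6J, 3.12 to 4.10 in DBA/2J and 6.70 to 8.66 in the other 8 F1, with 2.49 and 2.28 in the pair (index -0.26, and -0.66 without it). C4b, complement C4, averaged 471 ± 38.1 in C57BL/6J, 221 ± 98.2 in DBA/2J and 420 ± 123 in the F1 (index -0.72, and -0.92 without the pair). Gpnmb, truncated in DBA/2J, was low in the F1 (0.0184 to 0.609) and did not differ by test between the parents (0.123 to 4.02 and 0.0103 to 0.0851, adjusted p = 0.0572). Apoa2, Igf1, Igfals, H19 and Xist also did not pass between the parents or against the midpoint, and Klrd1 and Igf2 were below the level filter.

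Sult3a1, a sulfotransferase, had 2.38, 11.1 and 8.07 in C57BL/6J, 337, 1161 and 694 in DBA/2J and 73.1 to 447 in the other 8 F1, with 12.1 and 14.4 in the pair (index 0.25, and 0.42 without the pair). Sult2a6, another of that family, had 0.0810 to 0.425, 28.5 to 34.9 and 4.66 to 17.0 in the F1, with no overlap between the 3 (index 0.25). Hamp2, a relative of the iron hormone hepcidin, had 14.4 to 256, 1431 to 13964 and 854 to 3889 in the other 8 F1, with 35.9 and 58.0 in the pair (index 0.14, and 0.42 without it). In the other direction, Aox3, an aldehyde oxidase, had 45.2 to 52.2 in C57BL/6J, 3.58 to 6.31 in DBA/2J and 22.6 to 38.2 in the other 8 F1, with 7.72 and 7.54 in the pair (index -0.36, and -0.55 without it). Cyp2a22 averaged 51.8 ± 14.7 in C57BL/6J, 3.64 ± 2.58 in DBA/2J and 31.8 ± 22.3 in the F1, with 2.90 and 4.24 in the pair (index -0.47, and -0.72 without it).

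By the log2 index, some F1 levels were near those of 1 parent, at each gene below the higher one. An F1 at the plain mean of widely different parents also moves toward the higher parent on this scale. Such an index alone does not set these genes apart from it. Adra1d, an adrenergic receptor, had 0.0206 to 0.123 in C57BL/6J, 1.51 to 6.34 in DBA/2J and 2.91 to 5.58 in the other 8 F1 (index 0.84), beside 0.955 and 0.909 in the pair (index 1.02 without it). Corin, a serine protease that activates natriuretic peptides, had 0.137 to 0.232, 2.53 to 5.19 and 2.87 to 4.19 in the other 8 F1 (index 0.59), beside 0.402 and 0.374 in the pair (index 0.84 without it). On the C57BL/6J side, Ildr2, a membrane protein, had 12.0 to 15.9, 0.179 to 1.13 in DBA/2J and 7.12 to 14.9 in the other 8 F1, with 1.35 and 1.43 in the pair (index -0.55, and -0.75 without it). Mug2, a murinoglobulin, had 56.5 to 133, 9.93 to 11.5 and 37.0 to 121 in the F1 (index -0.64). Apol7d averaged 61.7 ± 12.4 in C57BL/6J, 4.99 ± 3.69 in DBA/2J and 55.8 ± 18.3 in the F1 without the pair (index -0.55 with it and -0.89 without). Folr2, a folate receptor of macrophages, gave -0.66 with the pair, where it stood at 272 and 281, and -0.12 without it, with 3.08 to 7.75 in the other 8 F1.

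Of 34 pathway lists, 33 held no gene called against the log2 midpoint, and the xenobiotic P450 list held 1 of 39, Cyp2c39. All 13 marker lists held 0. Over all genes the median F1 difference from the midpoint was 0.02, and medians of the pathway lists ran from -0.58 (18 major urinary proteins) to 0.36 (18 circadian clock genes), neither with a call. Those of the marker lists ran from -0.51 to 0.68, the highest for gall bladder and duct mucus, whose markers were high in the pair. Without the pair the medians of the urinary protein and clock lists were -0.58 and 0.44 against -0.01 over all genes.

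The lists at which the parents differed show how the F1 followed. Over all genes 7.73% were higher and 9.19% lower in DBA/2J, with the F1 near the midpoint at 65.6% of those called. Without the pair 1276 of 13301 genes were higher and 1455 lower, and without DBA/2J replicate 2 as well 400 and 279. In antigen presentation 7 of 27 genes were higher and 1 lower in DBA/2J, and the F1 were near the midpoint at 7 and nearer C57BL/6J at 1, B2m. Without the pair 9 were higher, and without DBA/2J replicate 2 as well 4. H2-Q2, a class I gene, had 0.280 to 0.540 in C57BL/6J, 11.8 to 19.4 in DBA/2J and 3.78 to 7.66 in the F1, with no overlap. H2-T10 had 2.33 to 2.54, 11.5 to 31.9 and 4.39 to 9.68, likewise. These genes are close paralogs, so their reads are uncertain. The list genes named here were chosen after their values were seen. Of 39 xenobiotic P450 genes, 6 were higher and 2 lower in DBA/2J, with the F1 near the midpoint at 6 and nearer C57BL/6J at 2, so 8 of 39 were called against 16.9% over all genes. Without the pair and DBA/2J replicate 2, 2 were higher and 2 lower. Cyp3a13 had 36.0 to 84.3, 7.64 to 9.79 and 20.4 to 58.0 in the F1 (index -0.44). Cyp2c67 had 52.8 to 106 in C57BL/6J, 94.6 to 173 in DBA/2J and 33.5 to 80.0 in the F1, which overlapped C57BL/6J and lay below DBA/2J (index -1.39). Of 26 UDP-glucuronosyltransferases and sulfotransferases, 6 were higher in DBA/2J, all 6 with F1 near the midpoint, and 2 were higher without the pair and DBA/2J replicate 2.

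Several list counts fell without DBA/2J replicate 2, as did those over all genes. With all libraries 7.73% of all genes were higher and 9.19% lower in DBA/2J, with F1 near the midpoint at 65.6% of those called. Without the pair 1276 of 13301 genes were higher and 1455 lower, with 40.1% near the midpoint. Without all 3 libraries 400 were higher and 279 lower, with 59.5%. Of 45 nuclear genes of oxidative phosphorylation, 18 were higher in DBA/2J, with F1 near the midpoint at 15 and nearer C57BL/6J at 3. Without the pair 24 were higher, 7 near the midpoint and 16 nearer C57BL/6J, and without DBA/2J replicate 2 as well 5 were higher. Of 68 cytosolic ribosomal protein genes 12 were higher and 1 lower, with F1 near the midpoint at 12. The counts higher and lower were 29 and 1 without the pair, and 1 and 1 without all 3 libraries. Of 29 extracellular matrix genes 11 were lower in DBA/2J, all 11 with F1 near the midpoint, and 1 was lower without all 3 libraries.

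Against the mean of the 36 BXD strains, the F1 differed at 67 genes (0.504%), 55 higher (0.414%) and 12 lower (0.0902%). Each BXD strain is largely homozygous for 1 parental allele or the other at each locus. Strain levels were averaged on the log2 scale, where the mean of high and low levels lies below the log of their plain mean. The same contrast was not run on the FPKM scale, and its SE holds spread within strains, not between them. The genes named here were chosen after their values were seen. Cyp2c39 was 2.06 higher in the F1 (SE 0.16, limma adjusted p = 1.73e-18), Eno1b 1.77 and Ctse 1.5, with 26, 24 and 21 of the 36 strain levels below that of the F1. Cyp2c39 averaged 71.2 rescaled FPKM in the F1 and 40.2 in the BXD libraries. The same means were 21.3 and 14.9 for Eno1b and 16.9 and 12.8 for Ctse. Cebpe, a myeloid transcription factor, was 1.31 higher (adjusted p = 3.76e-07), with F1 at 4.15 ± 1.52, C57BL/6J at 6.87 ± 4.80 and DBA/2J at 0.0262 ± 0.0242. Ildr2 was 1.21 higher (adjusted p = 5.23e-08) and Fitm1, which helps to form lipid droplets, 1.08 (adjusted p = 0.0294). Cd207 (1.19, adjusted p = 0.00812) and Cbr2 (1.18, adjusted p = 0.0139) passed with the pair, and had adjusted p = 0.234 and 0.910 without it. mt-Tg was lower by test (-1.65, adjusted p = 0.00145), but its F1 level averages crosses that stood apart, at 27.5 in B6D2F1 and 1.89 in D2B6F1. Dact2 was also lower (-0.61, adjusted p = 9.54e-04), below 35 of 36 strain levels. In all, the F1 were above every strain level at 23 genes and below every one at 6 (0.218% of 13301). These counts include the pair, and no count without it is given. Cbr2 and Cd207 were above all 36 strain levels, with F1 means of 31.3 and 38.2. Without the pair these means were 0.127 and 6.72, beside 0.136 and 5.33 in the BXD libraries. Without the pair 134 genes passed (1.01%), and without D2B6F1 replicate 1 or 2, 44 and 43 did.

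The F1 varied among themselves about as much as C57BL/6J once the pair was set aside. The median gene had a standard deviation of 0.171 on the log2 scale over the other 8 F1 around their cross means. The same measure was 0.158 over the 3 C57BL/6J and 0.346 over the 3 DBA/2J, or 0.189 without replicate 2 of the latter. With the pair it was 0.270 over the 10 F1. These are descriptions without a test. Diet within the F1 gave 0 limma calls in 13301 genes, with 1806 at an unadjusted p under 0.05, and 0 and 1117 without the pair. Cyp2b10, a P450 chosen after its values were seen, had 1.76, 3.71 and 10.7 in the other F1 on CD, 1.55 and 2.04 in the pair, and 0.344 to 0.846 in the 5 F1 on HF, with no overlap (log2 difference -1.46, adjusted p = 0.327).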

How the data were processed

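The deposited table holds FPKM values, which the authors made by mapping reads with STAR 2.6.0c to GRCm38 (mm10), per the submitters' processing notes. How reads were counted is not given in the sources used here. Of 150 columns, 7 repeated another library exactly and were left out, as were 2 males, which left 141 female libraries of 40 strains. For each of 25394 gene symbols 1 transcript was kept, that with the highest mean FPKM times GENCODE M21 length. After rescaling by median of ratios, 13301 genes whose mean FPKM reached 0.5 were tested.

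limma 3.58.1 (R 4.3.3, trend and robust) was fitted to log2(FPKM + 1), pseudocount 1, with strain as a fixed factor, diet and age (99 residual degrees of freedom). All groups shared 1 estimate of spread. Calls used Benjamini-Hochberg adjusted p under 0.05 over all genes. The fit was tested on simulated data. Whole reads, within 0.02, were recovered for 100% of values of each library that owns its values, at transcripts whose version is in GENCODE M21, and limma-voom on them was an alternative. It called 11 genes for the F1 against the midpoint.

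Members, lists and named genes were chosen with earlier results of these data known. Named were the largest differences among called genes whose mean FPKM reached 1, the genes with the smallest p beside them, the largest parental differences in each class of position, the called genes of each list and a fixed set. Among called genes, provisional symbols (Gm numbers and Rik names) were skipped. RefSeq promoter windows were matched for Snurf and Snrpn. Alternatives chosen after seeing the data left out the libraries that stood apart, joined this with a flow cell term, or took the midpoint on the FPKM scale. The deposited log2 table was not used. Some results that the rule would name are not reported here.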

Additional observations from a re-analysis of the deposited data

Results flagged for a closer look

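In 122 checks of a single library against its group of 4 or 6, the following stood far from the others, where chance marks about 1 in 20 groups. In D2B6F1, Cyp2c39 was lowest in replicate 3 at 55.8 rescaled FPKM (others 101 to 114). Wtip was highest in replicate 4 at 1.48 (0.826 to 0.875) and Gpnmb in replicate 1 at 0.609 (0.0872 to 0.130). Replicate 2 was highest for Xist at 25.6 (18.5 to 19.3), mt-Nd3 at 683 (436 to 438) and mt-Nd4 at 3686 (2470 to 2626). In B6D2F1, replicate 1 was lowest for mt-Co2 at 4.49 (14.9 to 21.1), mt-Atp6 at 5.46 (15.0 to 26.2) and mt-Atp8 at 4.79 (20.5 to 30.6).

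The reciprocal crosses differed by limma at the 7 genes singled out for that comparison, on the log2 scale and as D2B6F1 minus B6D2F1: mt-Tg by -3.42, Snrpn by -1.30, Snurf by -1.26, Gm38393 by -1.10, Wtip by -1.21, Bach2os by -0.92 and Mfsd5 by -0.75. Without B6D2F1 replicates 1 and 2, the first 4 of these had adjusted p = 0.0292, 4.91e-04, 0.0292 and 0.00286, and the last 3 had 0.581 each. Other genes named for other comparisons also passed between the crosses with that pair, among them Folr2 (-2.15) and Fam126a (0.70), and had adjusted p = 0.762 and 0.0612 without it.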

How the results depend on the processing

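The counts of genes called moved with most choices, and the cause was not tested beyond the alternative's own construction. F1 against the midpoint (4) gave 12 with a pseudocount of 0.1, 12 with no filter, 1 over 16 libraries with or without covariates, 1 with collection session, 2574 with arrayWeights, 11 with limma-voom, 2 with the F1 as 1 group, 150 and 253 over 14 and 13 libraries, and 0 on the FPKM scale with and without the pair. DBA/2J against C57BL/6J (2250) gave 1208 with a filter of 5, 1217 over 16 libraries with covariates, 778 with flow cell, 6666 with arrayWeights, 679 without 3 libraries, 3941 over 14, and 950 with flow cell without the pair. F1 against C57BL/6J (73) gave 136 with no filter, 27 with a filter of 5, 45 and 37 over 16 libraries with and without covariates, 1977 with arrayWeights and 270 over 13. F1 against DBA/2J (1241) gave 516 with a filter of 5, 540 over 16 libraries, 149 with session, 233 with flow cell, 5571 with arrayWeights, 3176 without the pair, 430 without 3 libraries, 3930 and 2146 over 14 and 13, and 224 with flow cell without the pair. The reciprocal crosses (875) gave 478 with a filter of 5, 5 and 6 over 16 libraries with and without covariates, 5 with session, 1992 with arrayWeights, 4 without the pair, 4 without 3 libraries, 2 and 4 over 14 and 13, and 7 with flow cell without the pair. F1 against the BXD mean (67) gave 139 with no filter, 31 with a filter of 5, 105 with session, 169 with flow cell, 3681 with arrayWeights, 111 with limma-voom, 134 without the pair and 153 without 3 libraries. Genes outside the parental range (0) numbered 1 with no filter, 1 without rescaling, 159 with arrayWeights, and 6 and 11 over 14 and 13 libraries. The median position (-0.38) was 0.03 with session, -0.18 with flow cell and -0.24 with flow cell without the pair. The share near the midpoint (65.6%) was 77.9% with session, 75.7% with flow cell, 39.7% with arrayWeights, 56.9% with limma-voom, 40.1% without the pair, and 38.7 and 44.0% over 14 and 13 libraries. The arrayWeights fit stopped before it converged.

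Leaving out 1 library at a time gave 1 to 4 genes for the midpoint, 601 to 3906 for the parents, 35 to 77 for C57BL/6J, 302 to 2902 for DBA/2J, 7 to 1592 for the crosses, 43 to 91 for the BXD mean and 0 to 0 outside the range. The median position ran from -0.53 to -0.24 and the share near the midpoint from 44.6 to 80.6%.

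On the FPKM scale the midpoint difference changed sign for Cyp2c39 (-0.27), Eno1b (-0.02, and -0.12 without the pair), Gm11127 (-0.47 and -0.51) and 2610507I01Rik (-0.04). Of the values of named genes under the alternatives, 927 kept direction and side of the threshold, 94 lost the call, 28 gained one and 6 changed sign. Between the crosses Snrpn kept its call in all 33 alternatives run, Snurf lost it in 2 (-1.14 with session, adjusted p = 0.179, and -1.29 over 14 libraries, 0.0547) and mt-Tg in 1 (-3.47 over 14 libraries, 0.0923). No paired analysis was possible because the labels give no replicate numbers. The deposited log2 table was not run. With 3 mice of each parent, the typical 95% interval of the midpoint difference was 0.30 to either side.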
